A study of Mus musculus with 6 samples.

Results

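The genes described are the receptors of the mouse for the constant part of immunoglobulin G (IgG) and the signalling chain they share. They were taken by Ensembl identifier from a table of 27835 features, and all 6 were present with 1 row each: Fcgr1 (ENSMUSG00000015947), Fcgr2b (ENSMUSG00000026656), Fcgr3 (ENSMUSG00000059498), Fcgr4 (ENSMUSG00000059089), Fcer1g (ENSMUSG00000058715) and Fcgrt (ENSMUSG00000003420). Total RNA was hybridised to 6 arrays (Affymetrix Mouse Gene 2.0 ST) in a study of Kupffer cells, the macrophages that line the sinusoids of the liver. From the liver of each of 3 mice, 1 sample of embryonic Kupffer cells (eKC) and 1 of monocyte-derived Kupffer cells (mKC) were sorted, so each group holds 3 arrays and the groups are paired by animal. All 3 mice were of the C57Bl/6 strain with the genotype CX3CR1-CreERT+/+ Stopfl/fl tdTomato, in which a ligand-dependent Cre recombinase (CreERT) driven by CX3CR1 can remove a stop before a red reporter, and all had received a treatment given only as sRBC. Both gates were CD45+ CD11b- and positive for the macrophage surface antigen that Adgre1 encodes. The eKC gate was also GFP- tdTomato+ and the mKC gate GFP+ tdTomato-. Origin was thus assigned from the reporters, and 1 sorted sample held 50000 cells. Untreated mice were not analysed here, and the sources used here give neither the age of the mice nor when Cre was induced.

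IgG that coats a particle or sits in an immune complex is recognised on macrophages by Fc gamma receptors. The activating receptors FcγRI (Fcgr1, CD64), FcγRIII (Fcgr3, CD16) and FcγRIV (Fcgr4) have no signalling motif of their own in the mouse and depend on the FcR common gamma chain (Fcer1g), whose tyrosine motif (ITAM) recruits the kinase Syk and starts phagocytosis. FcγRIIB (Fcgr2b, CD32) carries an inhibitory tyrosine motif (ITIM) that recruits the phosphatase SHIP and opposes these signals, so the balance of activating and inhibitory receptors sets how a macrophage responds to IgG. The neonatal Fc receptor FcRn (Fcgrt), a relative of MHC class I that pairs with beta-2 microglobulin, binds IgG inside acidic endosomes and returns it to the surface, which spares it from degradation. FcγRIIB is also well known on B cells and on liver sinusoidal endothelial cells. In the liver, Kupffer cells clear antibody-coated cells and immune complexes from the blood.

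In the gene table of RefSeq, Fcgr2b, Fcgr4 and Fcgr3 follow each other on chromosome 1 with no other protein-coding gene between them, and Fcer1g lies on the same chromosome. Fcgr1 is on chromosome 3 and Fcgrt on chromosome 7. The 100 bases just before the transcription start of each gene are shown, to set the inhibitory receptor beside its activating relatives. They are read 5′ to 3′ on the strand of the gene, from RefSeq promoters of build GRCm38.p6, with the letters GAGGAA or their reverse complement TTCCTC in capitals. GAGGAA is the core of many sites of PU.1, the ETS factor that macrophages depend on. The planned motif was the shorter GGAA, and GAGGAA was added after the promoters were at hand, so how it falls among these 6 genes supports nothing.
Fcgr1, chr3:96293970-96294069, minus strand: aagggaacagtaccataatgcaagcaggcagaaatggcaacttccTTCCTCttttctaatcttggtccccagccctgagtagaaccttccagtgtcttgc
Fcgr3, chr1:171059404-171059503, minus strand: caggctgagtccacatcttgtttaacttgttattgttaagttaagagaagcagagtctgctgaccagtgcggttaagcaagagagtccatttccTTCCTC
Fcgr4, chr1:171018826-171018925, plus strand: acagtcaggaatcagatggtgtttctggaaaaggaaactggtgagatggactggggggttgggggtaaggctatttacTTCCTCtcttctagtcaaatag
Fcgr2b, chr1:170976072-170976171, minus strand: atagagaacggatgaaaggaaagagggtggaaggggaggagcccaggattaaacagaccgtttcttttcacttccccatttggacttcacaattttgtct
Fcer1g, chr1:171234350-171234449, minus strand: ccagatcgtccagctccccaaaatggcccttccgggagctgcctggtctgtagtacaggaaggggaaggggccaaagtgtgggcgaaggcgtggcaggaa
Fcgrt, chr7:45103823-45103922, minus strand: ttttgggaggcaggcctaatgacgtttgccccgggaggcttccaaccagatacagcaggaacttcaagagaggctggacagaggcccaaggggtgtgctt
A GAGGAA match in either direction stood in the promoters of all 3 activating receptors, and none stood in these stretches, or in the full windows, of Fcgr2b, Fcer1g or Fcgrt. Counted to the first base of the match, it began 55 bases before the start in Fcgr1, 22 in Fcgr4 and 6 in Fcgr3, whose second listed start puts it at 15. Of 32851 promoters of the same table and length (250 bases before the start and 50 after it), 28.3% held the 6 letters anywhere. The shorter GGAA core lies inside GAGGAA and was read on both strands. It was found in 96.0% of all promoters and in all 6 of these genes. The full window held 7 matches in Fcer1g, 6 in Fcgr1 and in Fcgr4, 5 in Fcgr2b, and 3 in Fcgr3 and in Fcgrt. The median over all promoters was 3. These matches describe letters and show no binding, and promoter activity was not measured.

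Fcgr2b, the inhibitory receptor, was the gene of the 6 that differed past the threshold. Its normalised log2 intensity in the mKC arrays of animals 1, 2 and 3 was 9.51, 9.06 and 9.27, and in the eKC arrays of the same animals it was 8.33, 7.74 and 7.84. Every mKC value lay above every eKC value, with 0.72 between the lowest mKC array and the highest eKC array. The mean was 9.28 ± 0.23 in mKC and 7.97 ± 0.32 in eKC (log2, SD, n = 3). Fcgr2b therefore rose by 1.31 ± 0.098 (SE) on the log2 scale from eKC to mKC, a 2.48-fold difference with a 95% interval of 2.10 to 2.92 (limma, paired by animal, adjusted p = 0.0027). Within animals 1, 2 and 3 the fold was 2.26, 2.49 and 2.69. In these sorted bulk samples, fewer cells of a type and less RNA per cell cannot be told apart. Markers of B cells, sinusoidal endothelial cells or other cell types were not matched to features of the table. The part of such cells in the rise of Fcgr2b was not tested.

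In Fcgr2b the 3 animals came in the same order in both populations. Animal 1 had the highest level and animal 2 the lowest in mKC and in eKC alike. The differences within animals, with an SD of 0.13, thus spread less than the levels of either group. Over all features, deviations of an animal's 2 arrays from their group means correlated near 0, at -0.032, 0.026 and -0.019 in animals 1, 2 and 3. Whether the animals share an effect on Fcgr2b was not tested. The SD of the Fcgr2b levels, 0.23 and 0.32, was above the median SD of all features, 0.117 in mKC and 0.120 in eKC. Among all features, the rise of Fcgr2b ranked 74th by size and its p-value 85th. Of the 27835 features, 1.82% passed the threshold of an adjusted p under 0.05 and 0.995% passed it as higher in mKC. Of the 6 receptor genes, 1 passed as higher and 0 as lower. At an unadjusted p under 0.05, 2 of the 6 differed, Fcgr2b and Fcgrt, against 11.7% of all features.

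**Figure D1:**
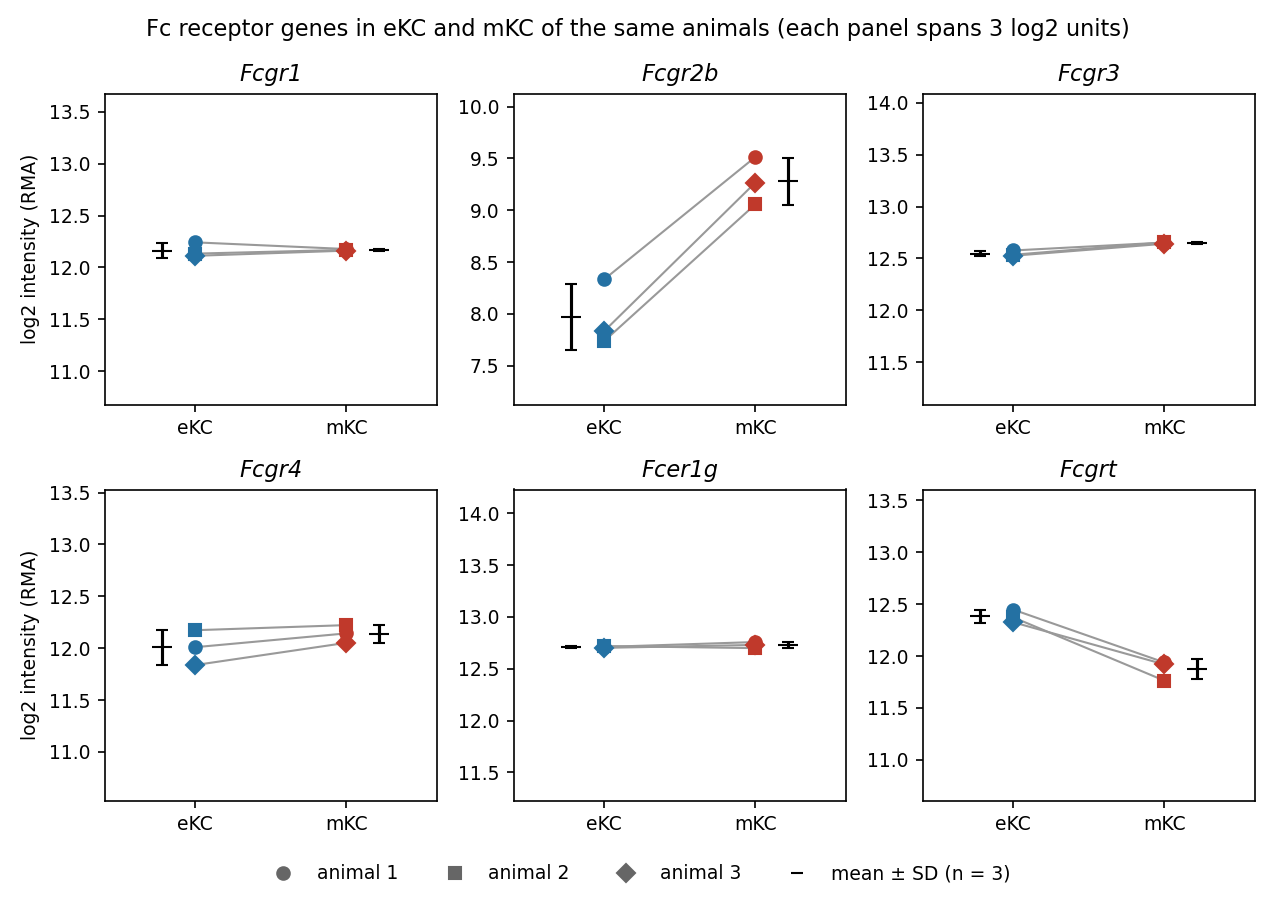
Normalised log2 intensity (y axis) of each gene in the eKC and mKC arrays (x axis). Symbols are animals, lines join the samples of one animal, and black bars give the mean ± SD of 3 arrays. The lines of Fcgr2b rise from between 7.74 and 8.33 to between 9.06 and 9.51, those of Fcgrt run downward, and those of the other 4 genes are nearly level.

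None of the 3 activating receptors passed the threshold, and their mKC levels lay close to their eKC levels. Fcgr1, the high-affinity receptor and a common marker of macrophages, read 12.18, 12.17 and 12.16 in the mKC arrays of animals 1, 2 and 3 and 12.24, 12.13 and 12.11 in their eKC arrays. The groups overlapped, and the difference was positive in animals 2 and 3 and negative in animal 1. Its mean was 12.17 ± 0.0079 in mKC and 12.16 ± 0.070 in eKC (SD, n = 3), a difference of 0.0073 ± 0.091 (SE) that did not pass the threshold (limma, adjusted p = 0.99). The 95% interval of the ratio of mKC to eKC ran from 0.862 to 1.17, and this interval holds for the processed intensity.

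Fcgr3, which binds immune complexes with low affinity, read 12.65, 12.65 and 12.64 in mKC and 12.58, 12.53 and 12.53 in eKC. Every mKC array lay above every eKC array, but by only 0.065 at the closest. Groups did not overlap, with mKC higher, for 8.91% of all features and for 2 of these 6 genes, Fcgr2b and Fcgr3. In either direction it was 17.7% of features and 3 of the 6 genes. The difference of 0.10 ± 0.089 (SE), or 1.07-fold with a 95% interval of 0.925 to 1.25, did not pass the threshold (limma, adjusted p = 0.76). The extracellular parts of FcγRIII and FcγRIIB are closely alike, so probes placed there could read both transcripts. The probes behind each row were not examined here.

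Fcgr4, which binds mouse IgG2 subclasses, read 12.14, 12.22 and 12.05 in mKC and 12.01, 12.17 and 11.84 in eKC. The mKC array was the higher in all 3 animals, while the groups overlapped. Animal 2 was highest and animal 3 lowest in both populations, and whether the animals share an effect on Fcgr4 was not tested. The difference was 0.13 ± 0.093 (SE), or 1.10-fold with a 95% interval of 0.937 to 1.28, and did not pass the threshold (limma, adjusted p = 0.69). The intervals of all 3 activating receptors thus reached at most 1.28-fold, below the lower bound of 2.10 for Fcgr2b.

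Fcer1g, the common chain on which these 3 receptors depend, read 12.76, 12.70 and 12.73 in mKC and 12.71, 12.72 and 12.70 in eKC. The groups overlapped and animal 2 went against animals 1 and 3. The difference was 0.018 ± 0.090 (SE), with a 95% interval of 0.871 to 1.18 for the ratio of mKC to eKC (limma, adjusted p = 0.97). Its spread between animals, an SD of 0.029 in mKC and 0.0085 in eKC, was below the median of all features.

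**Figure D2:**
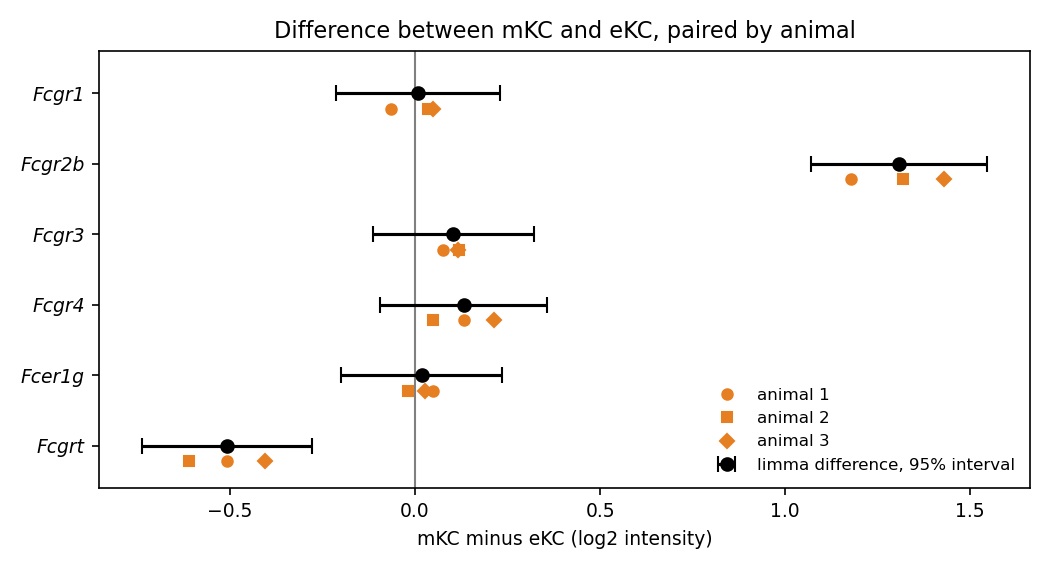
Difference between mKC and eKC (x axis, log2 intensity) for each gene (y axis). Black points with bars are the limma difference and its 95% interval, and coloured symbols are the differences within animals. The interval of Fcgr2b lies above 1, that of Fcgrt lies below 0, and the intervals of the other 4 genes include 0.

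Fcgrt, which encodes the IgG-recycling receptor FcRn, was the gene with the largest difference in the other direction. It read 11.94, 11.76 and 11.92 in the mKC arrays of animals 1, 2 and 3 and 12.45, 12.37 and 12.33 in their eKC arrays. Every mKC array lay below every eKC array, with a gap of 0.39 between them, as it did for 8.82% of all features. The mean was 11.87 ± 0.096 in mKC and 12.38 ± 0.061 in eKC (log2, SD, n = 3), so that the difference of -0.51 ± 0.095 (SE) exceeded the spread within either group. The level in eKC was 1.42 times that in mKC with a 95% interval of 1.21 to 1.67, and 1.42, 1.53 and 1.33 times within animals 1, 2 and 3. Over all features this did not pass the threshold (limma, unadjusted p = 0.0016, adjusted p = 0.071), and the smallest difference that did, without its sign, was 0.53. The call depended on the fit: without pairing the arrays by animal the adjusted p was 0.027, and with an intensity trend and robust estimation it was 0.0020. By p-value Fcgrt stood 611th among all features. At the threshold 0.823% of all features were called lower in mKC, and 0 of the 6 genes.

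**Figure D3:**
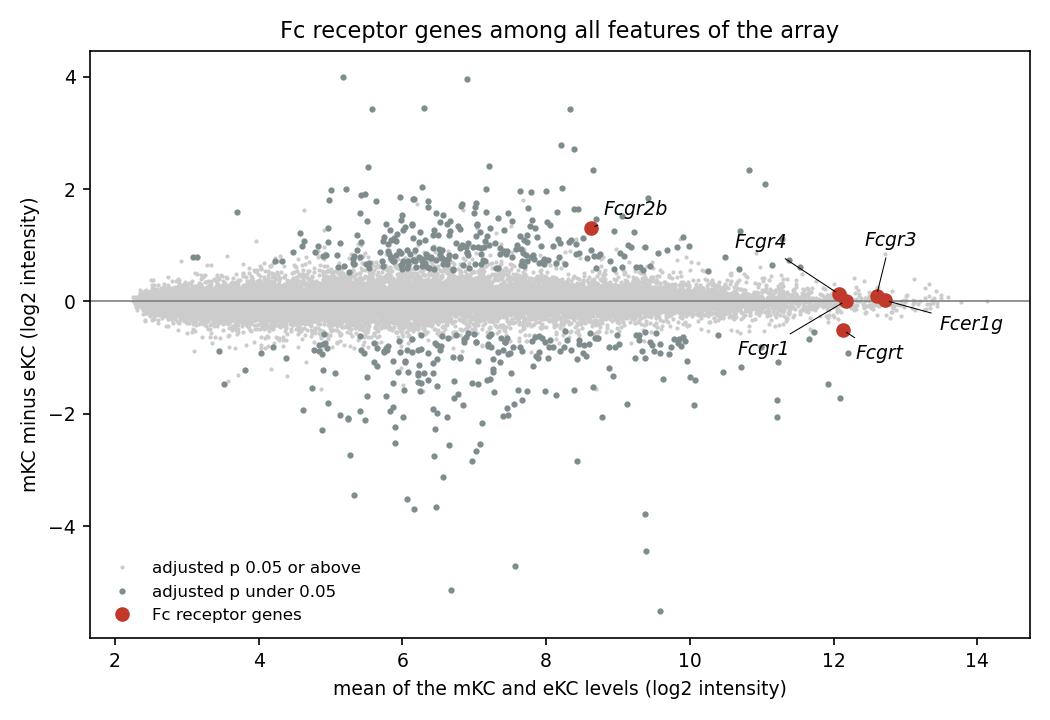
Difference between mKC and eKC (y axis, log2 intensity) against the mean of the 2 group levels (x axis, log2 intensity) for all 27835 features, with darker dots for an adjusted p under 0.05. The 6 receptor genes are in red: Fcgr2b lies at 1.31 among the called features, Fcgrt at -0.51, and the other 4 between 0.0073 and 0.13.

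All genes but Fcgr2b gave intensities near the top of the scale. The values of those 5 lay between the 99.1 and the 99.8 percentile of their arrays, and those of Fcgr2b between the 77.8 and the 92.0 percentile. These percentiles rank the brightness of probes and do not compare amounts of mRNA. The highest value of the table was 14.2. Whether bright probes compress differences was not measured here, and the intervals above do not cover it. Over all features the median difference was -0.0079, and 5% of differences lay below -0.30 and 5% above 0.32, so that Fcgr2b and Fcgrt lay outside this range and the other 4 genes inside it. The median over the 6 genes was 0.061. The sign was the same in all 3 animals for 4 of the 6 genes, all but Fcgr1 and Fcer1g, and for 33.0% of all features.

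The change of activating against inhibitory receptor was read as the difference of the log2 values of 2 genes within an array, compared between mKC and eKC of the same animal. The level of one gene was not set against that of another, only the change. Relative to Fcgr2b, Fcgr1 changed by -1.24, -1.28 and -1.38 in animals 1, 2 and 3, Fcgr3 by -1.10, -1.20 and -1.31, and Fcgr4 by -1.05, -1.27 and -1.22. All 3 animals thus showed a shift toward the inhibitory receptor for each activating receptor. It was read in bulk samples, and whether the transcripts of the 2 genes came from the same cells was not tested. The mean shift was -1.30 ± 0.071, -1.20 ± 0.11 and -1.18 ± 0.12 on the log2 scale (SD, n = 3 animals), which is 2.46-fold, 2.30-fold and 2.26-fold toward Fcgr2b. The 3 shifts share the Fcgr2b values and are not separate observations, and no test was made of them. As Fcgr1, Fcgr3 and Fcgr4 themselves differed by only 0.0073, 0.10 and 0.13, the shifts largely restate the rise of Fcgr2b by 1.31. Against its own receptors, the common chain moved little. Fcer1g changed by 0.011 ± 0.088 relative to Fcgr1, by -0.085 ± 0.055 relative to Fcgr3 and by -0.11 ± 0.063 relative to Fcgr4, all within 0.19 of 0 in every animal.

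**Figure D4:**
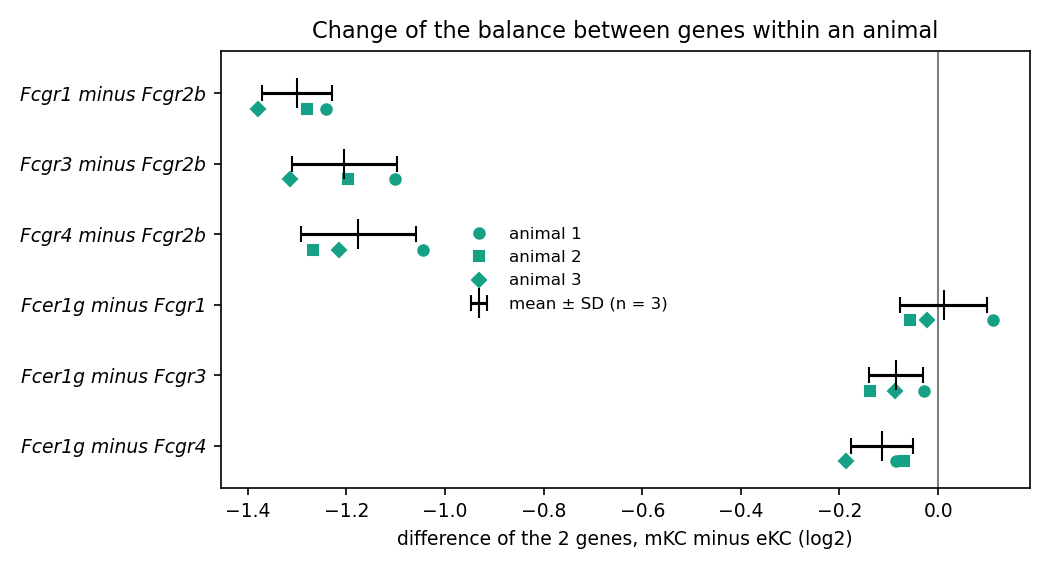
Change between eKC and mKC (x axis, log2) in the difference of 2 genes within an animal (y axis). Coloured symbols are animals and bars are the mean ± SD of 3 animals. The 3 activating receptors relative to Fcgr2b lie between -1.38 and -1.05, and the common chain relative to each activating receptor between -0.19 and 0.11.

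Features that followed Fcgr2b most closely over the 6 arrays were sought among the 13916 others with a mean above the median. The closest were ENSMUSG00000009654 and ENSMUSG00000032666, with Pearson correlations of 0.995 and 0.992. They rose by 1.36 ± 0.11 and 1.37 ± 0.12 (SE, log2) from eKC to mKC (limma, adjusted p = 0.0033 and 0.0046). Choosing features by their correlation with Fcgr2b over the same arrays favours those that share its group difference. These p-values are therefore no separate result. The next feature correlated at 0.991 although it differed by only 0.29 ± 0.090 and did not pass the threshold (limma, adjusted p = 0.27). In all, 159 of the 13916 features searched reached a correlation of 0.95. Over 6 points from 3 animals this describes a similar pattern of log2 values, in which the step between eKC and mKC weighs heavily. The table does not pair identifiers with symbols, so these features are given by identifier only and not matched to cell type markers. For the same reason the signalling and phagocytosis genes downstream of the receptors and the markers of the sort, 18 lists in all, could not be found in the table.

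**Figure D5:**
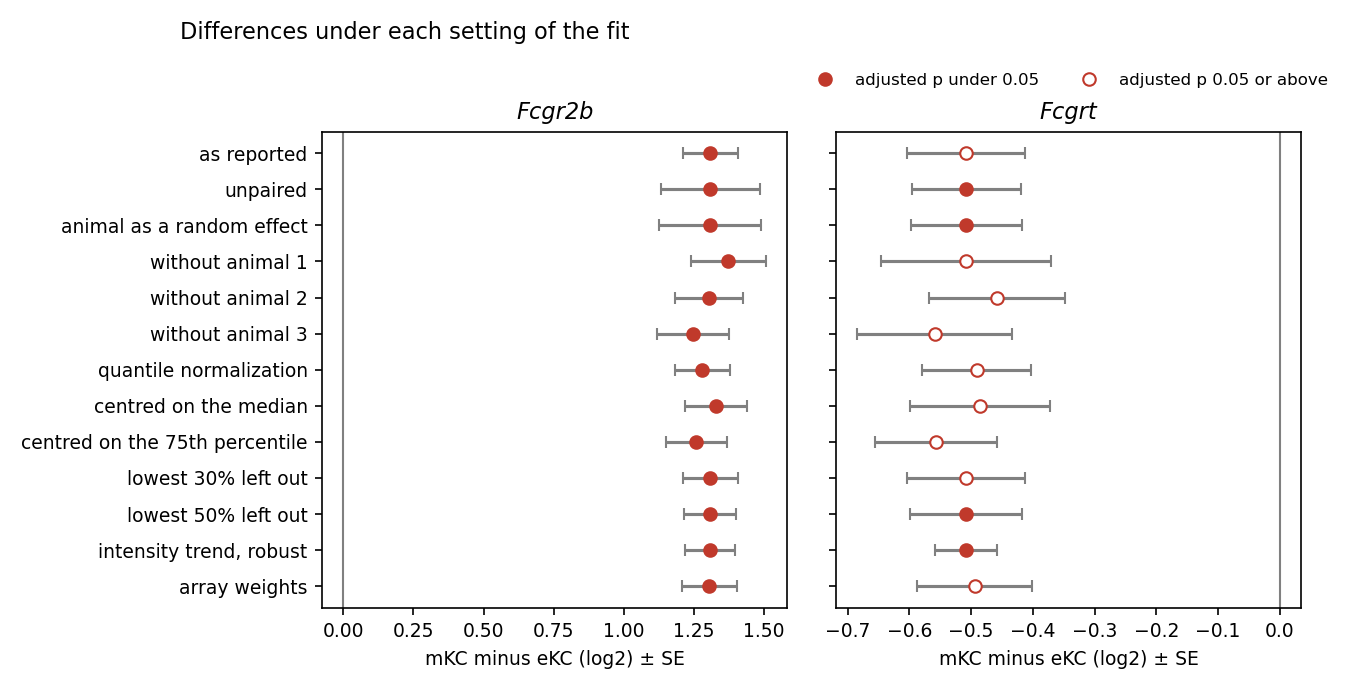
Difference between mKC and eKC (x axis, log2, ± SE) for Fcgr2b and Fcgrt under each setting of the fit (y axis). Filled points have an adjusted p under 0.05. Every point of Fcgr2b is filled, between 1.25 and 1.37, while those of Fcgrt lie between -0.56 and -0.46 and 4 of them are filled.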

How the data were processed

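Gene expression in 6 sorted samples was measured from 2 ng of total RNA each. The deposited values are log2 intensities that the authors made with RMA, which corrects background, applies quantile normalization and summarises probes, per the submitters' processing notes. The log base was taken from the range of the values, 2.09 to 14.2. The sources used here give neither a software version nor how probes were assigned to genes. RMA shrinks differences at low intensity, and the table holds no detection calls. For arrays, the number of animals limits the precision.

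The difference of mKC minus eKC was estimated for every feature by limma 3.58.1 (R 4.3.3), using lmFit, then eBayes, with a term for the animal, since the series describes its samples as paired. Two-sided p-values received a Benjamini-Hochberg adjustment across the 27835 features, with a threshold of 0.05. The fit had 2 residual degrees of freedom and 4.21 from the prior, and was tested on simulated data. Deviations of an animal's 2 arrays from their group means correlated at -0.032, 0.026 and -0.019. Any 2 arrays shared 26 to 41 identical values, so none was a copy.

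Symbols of the 6 genes came with their identifiers. The RefSeq table, which supplied chromosomes, held an Ensembl identifier for 0 of 49997 genes. Promoters of 6 of 6 genes were matched by symbol, and other motifs searched in them are not reported here. All 6 genes were to be named, along with features most like a called gene and called genes of the lists, which could not be matched. Genes and lists were chosen with earlier results of these data known. Alternatives were other pairings, animals left out, other scalings, filters on dim features, other variance models, array weights and other thresholds.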

Additional observations from a re-analysis of the deposited data

How the results depend on the processing

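Fcgr2b kept its rise past the threshold under all 14 alternatives (1.25 to 1.37 on the log2 scale, limma adjusted p from 0.00033 to 0.034), so 1 of the 6 genes was called higher in each. The looser threshold of 0.1 and the added difference of at least 1 reuse the reported fit, so their outcome for Fcgr2b was fixed. The number called lower was 0 with the reported fit (1.82% of all features called) and 1, Fcgrt, under 5 alternatives that also called more of all features: with no replicate block, so that arrays were not paired by animal (608 features, 2.18%), with the animal as a random effect (adjusted p = 0.030, 546 features, 1.96%), without the lowest 50% of features (0.040, 583 features, 4.19% of those left), with an intensity trend and robust estimation (705 features, 2.53%), and at an adjusted p under 0.1 (745 features, 2.68%). Under the other 9 it was 0, although some of them also called more of all features. With arrays centred on the median, 631 features were called and the limma adjusted p of Fcgrt was 0.083. The adjusted p of Fcgrt over all alternatives ran from 0.0020 to 0.29. It was highest with 1 animal left out, where 1 residual degree of freedom remains. The difference of Fcgrt stayed between -0.56 and -0.46. Fcgr3 and Fcgr4 kept a positive difference and did not pass under any alternative. Near 0, the sign turned for Fcer1g (-0.030) and Fcgr1 (-0.041) with arrays centred on the 75th percentile, and Fcgr1 ran from -0.014 to 0.043 with 1 animal left out, with -0.0072 without animal 2 and -0.014 without animal 3. The shifts between genes within an animal were recomputed under 6 of the alternatives and moved by less than their SD. Only quantile normalization could have moved them further. Centring cancels in a difference within an array, and leaving out 1 of 3 animals cannot move a mean by a whole SD. With the block, 506 features were called, 277 higher and 229 lower. With 1 animal left out, 171 to 369 were called, 78 to 233 higher and 93 to 136 lower, and the total was 252 without animal 1 and 171 without animal 3. Requiring a difference of at least 1 as well left, by construction, 236, 123 and 113. The alternatives for the gene lists were not run because no symbols were paired. Signal over background is not part of the table and could not be judged.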
